A study of Mus musculus with 16 samples.

Results

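The genes described here encode the machinery that brings nascent proteins into the endoplasmic reticulum (ER), removes their signal peptides and attaches N-linked glycans: the signal recognition particle (SRP), its receptor, the Sec61 channel with Sec63, the translocating chain-associating membrane proteins (TRAM), the translocon-associated protein (TRAP) complex, signal peptidase and the oligosaccharyltransferase (OST). The members were a fixed list of 35 gene symbols, and all 35 were among the 31053 rows of the deposited table. Of these, 34 passed the filter on low values (10 or more normalized counts in no fewer than 4 of the 16 samples), which left 10767 genes for testing. Expression was measured in C2C12, an established mouse myoblast line that fuses into multinucleated myotubes in culture, as undifferentiated myoblasts and as differentiated myotubes, either WT or with Fam134b knocked out (Fam134b KO), with 4 samples in each of the 4 groups. Fam134b (also Retreg1) encodes an ER-phagy receptor, a membrane protein that sends pieces of ER to the lysosome. According to the methods, the KO line was made with lentiviral CRISPR-Cas9 and drug selection, isolation of single clones is not mentioned, and differentiation followed spontaneously once cells reached confluence. Myoblasts and myotubes alike were kept in DMEM with fetal bovine serum, so no medium switch separates the stages. The sample titles give genotype and stage, while a separate label lists the genotype as unknown for every sample.

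Most secreted and membrane proteins enter the ER while they are being translated. SRP binds the emerging signal sequence and docks the ribosome on the SRP receptor, the Sec61 channel then passes the chain across or into the membrane, signal peptidase cuts the signal sequence on the lumenal side, and OST transfers a preassembled glycan to asparagine. In muscle, this route supplies the proteins of the sarcoplasmic reticulum, the receptors and adhesion proteins of the cell surface, and the extracellular matrix.

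Between 1484750 and 3287461 reads were counted on genes per sample, with the KO myotubes lowest (1484750 to 2947336), and 3 reads corresponded to a normalized count of 2.49 to 5.99. Fam134b itself had normalized counts of 149.7 to 251 in WT myoblasts and 23.4 to 35.6 in KO myoblasts, a log2 fold change of -2.86 (SE 0.26, adjusted p = 2.95e-08). In myotubes the ranges were 146 to 287 and 28.0 to 56.9, and the log2 fold change was -2.46 (SE 0.26, adjusted p = 9.85e-07). The summed level of the 7 muscle markers in the table (Myod1, Myog, Des, Myh3, Actc1, Ckm and Tnnt3) was 1073 to 1634 in myoblasts and 11325 to 15034 in myotubes of the WT, against 108 to 189 and 5454 to 7006 in the KO. Myog, which encodes the differentiation factor myogenin, was at 0 in all 4 KO myoblast samples. Myod1 had 5.81 to 15.7 in KO and 236 to 375 in WT myoblasts, and Des had 101 to 170 and 438 to 674. Of the 7 markers, 3 had more than 3 reads in any KO myoblast sample. In that group Des and Myod1 were thus detected, below their WT levels, while most of these markers did not bear out the muscle label. Summed over 4 markers each, adipocyte, osteoblast and endothelial levels reached at most 0.863, 6.04 and 1.94. Leukocyte markers summed to 4.00 to 24.2. Of these, Ptprc and Adgre1 were at 0 in every group, while Cd68 reached 11.2 in WT myotubes and Csf1r reached 21.9 in KO myotubes.

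Samples of 1 group did not deviate evenly over the members, which bears on every count given here. WT myoblast replicate 4 was the lowest of its group in 16 of the 34 tested members (47.1%, against 26.6% of all tested genes), and WT myoblast replicate 1 the highest in 16 (47.1%, against 23.9%). WT myotube replicate 1 was the highest of its group in 21 members (61.8%, against 32.7%), and WT myotube replicate 2 was the lowest in 18 (52.9%, against 33.2%). KO myoblast replicate 3 was the highest in 18 members (52.9%, against 24.7%). In KO myotubes, replicate 1 was the highest in 16 members (47.1%, against 24.2%), and replicates 2 and 4 were the shallowest libraries of the study, at 1790524 and 1484750 reads. The part of these libraries in the differences between groups was not tested, and counts without a library are given beside the results where they moved most.

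**Figure D1:**
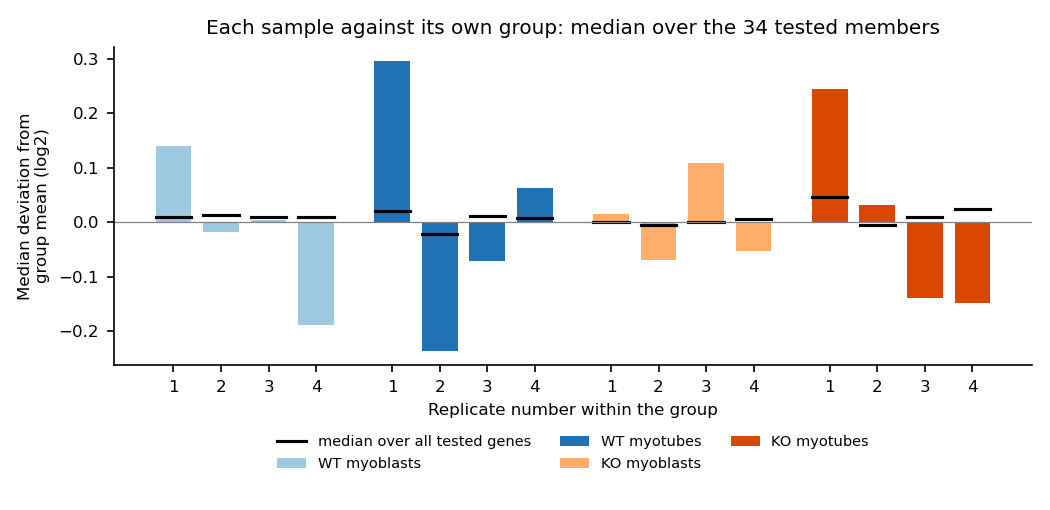
Median deviation of the 34 tested members from their group mean, in log2 units, for each of the 16 samples (bars, coloured by group), with the median over all 10767 tested genes as a black line. WT myotube replicate 1 stood 0.29 above and replicate 2 stood 0.24 below their group mean for the members, while the medians over all genes were 0.02 and -0.02.

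The promoters of ER genes are known for a pair of short elements through which the unfolded protein response acts, ERSE (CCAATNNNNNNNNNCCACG) and ERSE-II (ATTGGNCCACG), bound by ATF6 and XBP1, and for the UPRE core (TGACGTGG). RefSeq (GRCm38.p6) gave a window of 250 bases before to 50 bases after the transcription start for 26 of the 35 members. Windows for Srp19, Srp68, Sec61a1, Tram1, Ssr2, Spcs3, Sec11c, Tusc3 and Ostc were not used here. On either strand, 0 of the 26 members held an ERSE (0.137% of all 27025 genes with a window), 1 held an ERSE-II (Krtcap2, against 0.0444%) and 0 held the UPRE core (0.714%). The shorter letters within these elements, searched after the values had been seen, were CCAAT, found in 15 of the 26 members (41.1% of all genes with a window), and CCACG, found in 18 (35.5%). The E-box CAGCTG, of the kind bound by myogenic factors such as MyoD, was found in 2 (Srp9 and Ost4, against 18.3%). Windows are shown for Krtcap2, as the holder of the ERSE-II, and for Tram2, Ost4 and Rpn1, which had the smallest adjusted p of the members with a window and were therefore chosen on their values. They lie at chr3:89246223-89246522 (plus strand), chr1:21079176-21079475 (minus strand), chr5:30907739-30908038 (minus strand) and chr6:88084223-88084522 (plus strand). Capitals mark CCAAT and CCACG on either strand (ATTGG and CGTGG on the other).
Krtcap2: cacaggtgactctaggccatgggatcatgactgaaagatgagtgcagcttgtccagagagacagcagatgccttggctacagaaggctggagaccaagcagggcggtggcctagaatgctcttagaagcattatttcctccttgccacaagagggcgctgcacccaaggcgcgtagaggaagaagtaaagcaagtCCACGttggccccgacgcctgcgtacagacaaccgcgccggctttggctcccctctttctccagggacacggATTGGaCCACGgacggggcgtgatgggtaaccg
Tram2: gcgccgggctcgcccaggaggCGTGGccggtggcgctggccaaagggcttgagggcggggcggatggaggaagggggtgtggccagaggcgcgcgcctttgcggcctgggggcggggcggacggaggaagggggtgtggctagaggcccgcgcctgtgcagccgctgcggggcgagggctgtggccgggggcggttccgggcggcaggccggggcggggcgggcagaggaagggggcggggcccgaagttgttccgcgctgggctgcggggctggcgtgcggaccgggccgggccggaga
Ost4: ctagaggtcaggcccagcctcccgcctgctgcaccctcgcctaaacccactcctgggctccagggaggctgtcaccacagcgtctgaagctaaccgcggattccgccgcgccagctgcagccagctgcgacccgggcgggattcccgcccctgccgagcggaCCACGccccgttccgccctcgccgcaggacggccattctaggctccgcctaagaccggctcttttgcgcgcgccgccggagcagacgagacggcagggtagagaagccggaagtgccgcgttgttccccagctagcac
Rpn1: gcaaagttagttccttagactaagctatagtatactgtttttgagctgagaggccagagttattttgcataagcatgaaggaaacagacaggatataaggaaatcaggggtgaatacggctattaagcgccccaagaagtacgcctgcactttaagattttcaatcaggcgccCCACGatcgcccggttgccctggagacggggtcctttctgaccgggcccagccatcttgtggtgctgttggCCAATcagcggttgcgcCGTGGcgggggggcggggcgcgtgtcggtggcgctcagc
The ERSE-II of Krtcap2 begins at base 18 of the transcript that starts in the window shown. A second RefSeq window of this gene, at chr3:89246188-89246487, holds no ERSE-II and no CCAAT. The Tram2 window, rich in G and C, holds a single CCACG and no CCAAT, and its CCACG begins 229 bases before the start on the other strand. The Ost4 window holds 1 CCACG, 88 bases before the start, and its E-boxes begin 139 and 129 bases before it. In Rpn1 a CCAAT begins 6 bases before the start, between a CCACG 77 bases before it and another on the other strand, 12 bases after it. A match of letters is not a bound site, and its absence from a window says nothing about the factor.

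The first question was how this machinery changed as WT myoblasts became myotubes. Of the 34 members, 11 rose and 1 fell at an adjusted p under 0.05 (limma, adjusted over all tested genes). That is 32.4% and 2.94% of the members, where 13.8% of all tested genes rose and 9.16% fell. Over all genes 60.1% of the calls were higher, and 49.7% under quantile normalization, which left the 12 calls among the members as they were. The median log2 fold change of the members was 0.48, against -0.01 over all tested genes, and 28 of the 34 had a positive value. The genes that rose were Srprb, Sec61a1, Sec61a2, Ssr2, Ssr3, Spcs1, Rpn2, Ddost, Stt3a, Tusc3 and Ostc, so that every complex but SRP and TRAM had at least 1, and Sec61b fell. Without WT myoblast replicate 4 the count was 4, and without WT myotube replicate 1 it was 5. Without WT myotube replicate 2 the count was 16, gaining Sec11c, Sec63, Spcs2, Srpr and Ssr1 and losing Sec61a1. The calls over all tested genes moved as well, from 1488 higher and 986 lower with every sample kept. They were 1072 and 606 without WT myoblast replicate 4, and 1028 and 536 without WT myotube replicate 1. Without WT myotube replicate 2 they were 1663 and 1286. In bulk RNA, a change in the share of cells of one kind and a change in RNA per cell cannot be told apart.

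In Fam134b KO cells, 12 members rose and 2 fell between myoblasts and myotubes, which is 35.3% and 5.88% of the members, where 17.3% of all tested genes rose and 16.1% fell. The median log2 fold change was 0.37, against -0.02 over all genes. Srprb, Sec61a1, Ssr2, Rpn2, Stt3a and Ostc rose in both genotypes and Sec61b fell in both. Srp14, Tram2, Ssr1, Spcs2, Sec11a and Rpn1 rose, and Ost4 fell, past the threshold in KO cells while missing it in WT cells, and Sec61a2, Ssr3, Spcs1, Ddost and Tusc3 the other way round. None of these differences between genotypes passed the test of the difference itself, given with the interaction. Scaling to equal totals gave 10 calls, 8 higher and 2 lower, without Rpn2, Srprb, Ssr2 and Stt3a, and over all genes it turned the calls from 51.8% to 45.8% higher. Quantile normalization lost Rpn2, Srprb and Ssr2. With the 2 shallow KO myotube libraries left out, an alternative chosen after seeing the data, 12 members were called in KO cells, losing Rpn2, Sec61b, Srp14 and Srprb and gaining Ssr3 and Tram1. Leaving out KO myoblast replicate 4 gave 8 calls, and leaving out KO myoblast replicate 1, KO myoblast replicate 2 or KO myotube replicate 1 gave fewer calls too, with 9 of the original 14 kept each time. Over all tested genes, 1860 rose and 1731 fell with every sample kept, against 1560 and 1327 without KO myoblast replicate 4. With the shallow libraries left out these were 1797 and 1615.

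**Figure D2:**
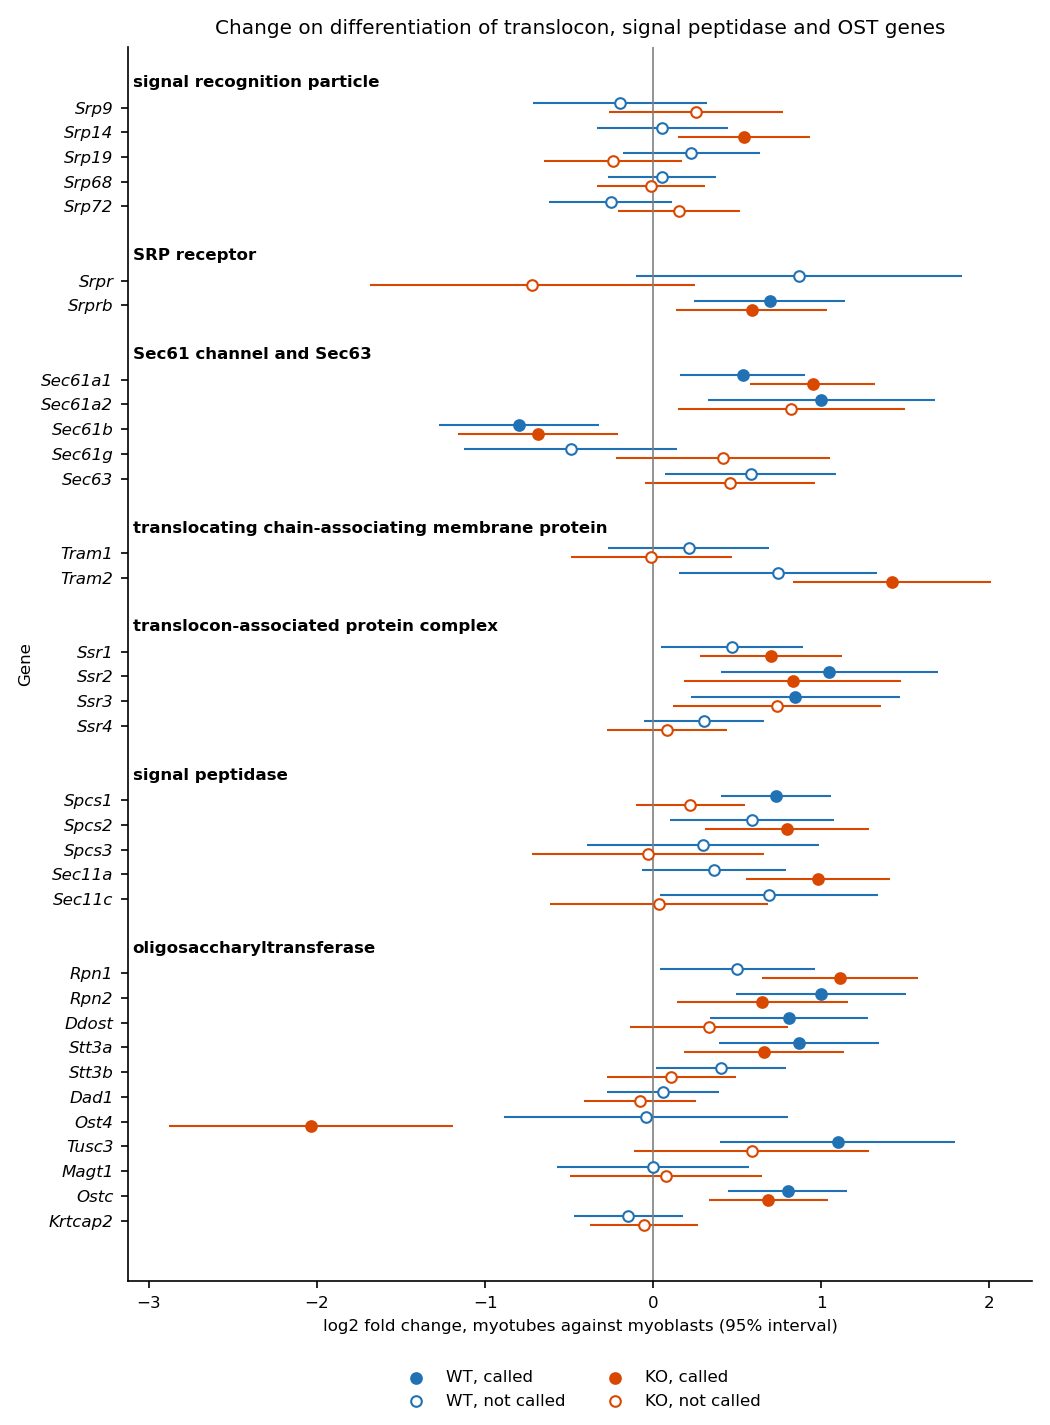
Log2 fold change of myotubes against myoblasts (x axis) for the 34 tested members grouped by complex, in WT (blue) and Fam134b KO (orange), with 95% intervals from the limma fit; filled points passed an adjusted p of 0.05. Most points lie right of 0 in both genotypes, while Sec61b lies left in both and Ost4 stands at -2.03 in KO cells and -0.05 in WT cells.

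SRP is the cytosolic particle that reads the signal sequence. Of its 5 tested protein genes, 0 passed the test in WT cells, with log2 fold changes between -0.25 for Srp72 and 0.23 for Srp19. Over all tested genes 13.8% rose and 9.16% fell in WT cells, so 0 of 5 genes does not set SRP apart. In KO cells 1 of the 5 rose (20%, against 17.3% of all tested genes). Srp14, which with Srp9 forms the domain that slows translation, rose in KO cells, from 489, 703, 463 and 481 to 688, 623, 863 and 929 normalized counts in replicates 1 to 4. The log2 fold change was 0.54 (SE 0.19, adjusted p = 0.0309). The 2 groups overlapped, since KO myoblast replicate 2 at 703 lay above 2 of the myotube samples, and the call was lost in 7 of 26 alternatives. Srp9 (0.26), Srp19 (-0.24), Srp68 (-0.01) and Srp72 (0.15) missed the test in KO cells on the log2 scale. Srp54a, one of the mouse genes for the GTPase that binds the signal sequence, was listed at 0 in all 16 samples, which allows up to 3 reads. In the GENCODE M21 annotation, 61.6% of the 31-base stretches in the last 500 bases of its transcripts also occur in Srp54b or Srp54c, which had at most 3 and 5 reads in any sample, and reads that fit several copies may not have been counted.

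The SRP receptor has a GTPase subunit that meets SRP, Srpr, and a membrane-anchored GTPase subunit, Srprb. Srprb rose in both genotypes, with a log2 fold change of 0.69 (SE 0.22, adjusted p = 0.0255) in WT cells and 0.59 (SE 0.22, adjusted p = 0.0418) in KO cells. WT myoblasts ranged from 96.2 to 136 normalized counts and WT myotubes from 161 to 216, without overlap, whereas KO myotube replicate 3 (97.2) lay within the KO myoblast range of 87.5 to 127. The WT call was lost in 4 of 26 alternatives and the KO call in 14, and 20.7% of the exonic bases of Srprb overlap Gm20425 on the same strand. Srpr was measured on few reads (4 to 55 per sample), and its log2 fold changes of 0.86 in WT and -0.72 in KO cells did not pass (adjusted p = 0.191 and 0.248). Pseudogenes share 31.5% of its 3' end.

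The Sec61 channel is built of a pore-forming alpha subunit, encoded by Sec61a1 or Sec61a2, and the small beta and gamma subunits, Sec61b and Sec61g. Its subunits did not move together. Sec61a1 (ENSMUSG00000030082, chr6:88503579-88518905) had 512, 457, 427 and 325 normalized counts in the 4 WT myoblast samples and 689, 658, 557 and 566 in WT myotubes. In KO cells it had 626, 599, 796 and 592 in myoblasts and 1643, 1233, 945 and 1285 in myotubes. Every myotube sample stood above every myoblast sample of its genotype, and KO myotubes stood above all other samples. The log2 fold change on differentiation was 0.53 (SE 0.18, adjusted p = 0.0355) in WT cells and 0.95 (SE 0.18, adjusted p = 0.000323) in KO cells, and the WT call was lost in 6 of 26 alternatives.

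Sec61a2 (ENSMUSG00000025816, chr2:5870987-5895432), the second alpha subunit gene, had 39.7, 40.5, 40.0 and 16.04 normalized counts in WT myoblasts and 109, 58.5, 52.0 and 53.5 in WT myotubes. The groups did not overlap, but replicate 4 of the myoblasts lay far below the rest and replicate 1 of the myotubes far above. Its log2 fold change was 1.00 (SE 0.32, adjusted p = 0.0305) in WT cells, and leaving out either of those samples ended the call. KO cells had 34.1, 27.4, 46.8 and 38.4 in myoblasts and 93.9, 81.7, 46.8 and 48.0 in myotubes. There the lower myotube samples lay at the level of the highest myoblast sample, and the log2 fold change of 0.82 (SE 0.32, adjusted p = 0.0552) missed the threshold. Some 19.9% of its exonic bases overlap Nudt5 on the other strand, and whether counting used strand is not given in the sources used here.

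Sec61b (ENSMUSG00000053317, chr4:47474658-47483242) went the other way. It had 491, 495, 534 and 596 normalized counts in WT myoblasts and 321, 244, 303 and 356 in WT myotubes, all 4 lower. In KO cells, 589, 891, 426 and 679 in myoblasts compared with 381, 327, 643 and 279.8 in myotubes, where replicate 3 lay within the myoblast range. The log2 fold changes were -0.80 (SE 0.23, adjusted p = 0.0157) in WT cells and -0.69 (SE 0.23, adjusted p = 0.0248) in KO cells. The WT call ended without WT myoblast replicate 4 and the KO call in 7 of 26 alternatives, and pseudogenes share 26.7% of the 3' end of this gene. Sec61g (ENSMUSG00000078974, chr11:16500530-16508484) had 61.8, 50.2, 53.0 and 90.0 in WT myoblasts, 35.4, 58.5, 35.3 and 50.5 in WT myotubes, 59.5, 139, 51.2 and 59.2 in KO myoblasts and 74.5, 75.9, 92.7 and 154 in KO myotubes. Its changes on differentiation, -0.49 in WT and 0.41 in KO cells on the log2 scale, did not pass, and 21.4% of its 3' end is shared with pseudogenes. Sec63, the J-domain protein that brings the chaperone BiP to the channel, had log2 fold changes of 0.58 and 0.46 with adjusted p = 0.0915 and 0.156.

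**Figure D3:**
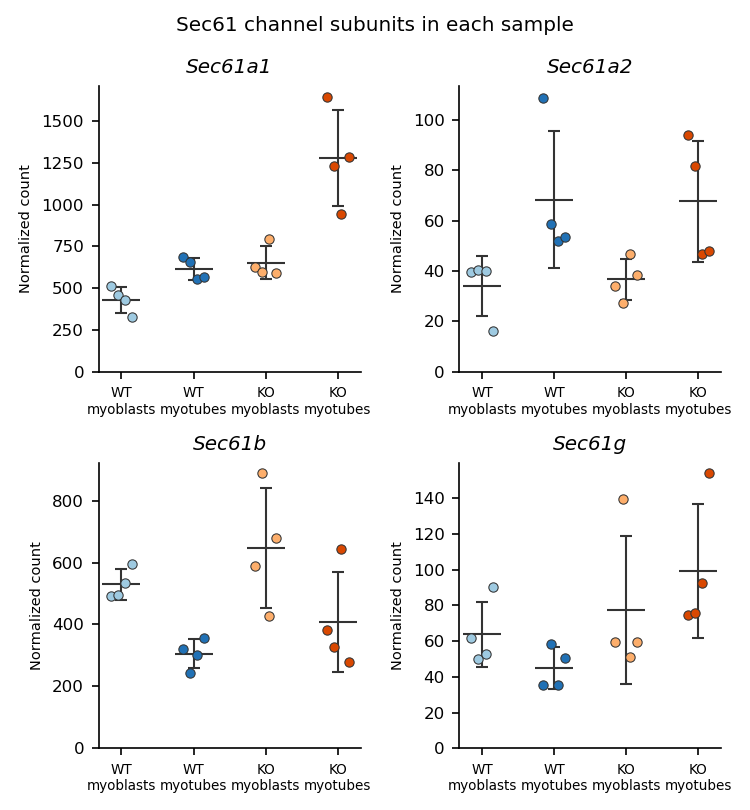
Normalized counts (y axis, linear, from 0) of the 4 Sec61 channel genes in each of the 16 samples, with the group mean and SD as a bar with whiskers. Sec61a1 is highest in KO myotubes (945 to 1643), Sec61b is lower in WT myotubes (244 to 356) than in any WT myoblast sample, and single samples stand apart for Sec61a2 and Sec61g.

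Among the TRAM proteins, which sit beside Sec61 and contact nascent chains, Tram2 changed and Tram1 did not pass the test. Tram2 (ENSMUSG00000041779, chr1:20996299-21079229), which is known for a part in collagen synthesis, had 42.4, 52.1, 32.0 and 22.3 normalized counts in WT myoblasts and 62.2, 56.7, 53.0 and 69.4 in WT myotubes. In KO cells it had 49.0, 52.3, 60.7 and 34.2 in myoblasts and 177, 177, 78.3 and 118 in myotubes. All 4 KO myotube samples were above every other sample of the study. The KO change was 2.68-fold, a log2 fold change of 1.42 (SE 0.28, adjusted p = 0.000577), and it held under every alternative. The WT change of 0.74 (SE 0.28, adjusted p = 0.0629) on the log2 scale did not pass, although every WT myotube sample lay above every WT myoblast sample. Tram1 had 397, 359.7, 341 and 359 in WT myoblasts, 519, 368, 403 and 407 in WT myotubes, 369, 385, 357 and 343 in KO myoblasts and 568, 353, 453 and 186 in KO myotubes. The KO myotube samples of Tram1 were spread most widely, with the shallowest library lowest.

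TRAP is a complex of 4 subunits that binds next to Sec61 and aids the entry of certain chains and their glycosylation. All 4 had positive log2 fold changes in both genotypes, with a median of 0.66 in WT and 0.72 in KO cells, and 2 passed the test in each. This is 50% of the 4 genes, where 13.8% of all tested genes rose in WT and 17.3% in KO cells. Ssr2 (ENSMUSG00000041355, chr3:88575876-88588419), the beta subunit, had 246, 185, 223 and 135 normalized counts in WT myoblasts and 612, 341, 329.9 and 369 in WT myotubes, with no overlap. In KO cells it had 157, 188, 220.4 and 200.2 in myoblasts and 482, 659.5, 231 and 178 in myotubes, which overlapped through replicate 4, while replicate 3 lay just above the highest myoblast sample. Its log2 fold change was 1.05 (SE 0.31, adjusted p = 0.019) in WT and 0.83 (SE 0.31, adjusted p = 0.0438) in KO cells. The WT call was lost without WT myoblast replicate 4 or WT myotube replicate 1, and the KO call in 13 of 26 alternatives. Ssr3, the gamma subunit, rose in WT cells by 0.85 on the log2 scale (adjusted p = 0.0451), from a range of 160.1 to 199 to one of 173 to 553 that overlapped it. This call too was lost in 13 of 26 alternatives. Ssr1, the alpha subunit, rose in KO cells from 176 to 265 to 282 to 443, without overlap and under every alternative (log2 fold change 0.70, adjusted p = 0.011). Ssr4, the delta subunit, did not pass, with 0.30 in WT and 0.08 in KO cells on the log2 scale.

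Signal peptidase joins 1 of 2 catalytic subunits, Sec11a or Sec11c, with the accessory subunits Spcs1, Spcs2 and Spcs3. In WT cells Spcs1 passed the test, and in KO cells Spcs2 and Sec11a did. These are 20% and 40% of its 5 genes, where 13.8% of all tested genes rose in WT and 17.3% in KO cells. Spcs1 (ENSMUSG00000021917, chr14:30999826-31001672) had 543, 625, 560.4 and 545 normalized counts in WT myoblasts and 1150.0, 735, 854 and 1089 in WT myotubes. The values in KO cells were 547, 569, 584 and 545 in myoblasts and 629, 611, 584 and 815 in myotubes. Neither pair of groups overlapped, though the KO groups all but touched. The log2 fold change in WT cells was 0.73 (SE 0.16, adjusted p = 0.00203), held under every alternative, while that in KO cells was 0.22 (SE 0.16, adjusted p = 0.292). Some 16.3% of its exonic bases overlap Glt8d1 on the other strand.

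Sec11a (ENSMUSG00000025724, chr7:80904889-80947780) had 143, 143, 148 and 87.3 normalized counts in WT myoblasts, 214, 147, 142 and 162 in WT myotubes, 114, 129, 116 and 110.1 in KO myoblasts and 317, 254, 205 and 176 in KO myotubes. KO myotubes were all above KO myoblasts, and the WT groups overlapped. The log2 fold change was 0.98 (SE 0.21, adjusted p = 0.000991) in KO cells under every alternative, and 0.36 (SE 0.21, adjusted p = 0.218) in WT cells. Sec11c, the other catalytic subunit, was measured on 7 to 39 reads per sample. It had 22.1, 13.5, 19.0 and 15.2 in WT myoblasts, 28.5, 17.1, 36.2 and 35.7 in WT myotubes, 14.9, 21.6, 21.7 and 22.5 in KO myoblasts and 19.4, 30.6, 20.7 and 13.99 in KO myotubes, and its changes of 0.69 in WT and 0.03 in KO cells did not pass. Spcs2 rose in KO cells by 0.80 on the log2 scale (adjusted p = 0.0124), from 100.1 to 138 to 152 to 379, a call lost without KO myotube replicate 1. The WT value of Spcs2 was 0.59 (adjusted p = 0.0767), also without overlap between the groups. Spcs3 changed by 0.29 in WT and -0.03 in KO cells on the log2 scale and did not pass.

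OST exists in 2 forms, named after their catalytic subunits. The STT3A form works at the Sec61 channel as chains emerge, with the linkers Ostc and Krtcap2, while the STT3B form carries an oxidoreductase, Tusc3 or Magt1, and reaches sites that the former skipped. Of the 11 OST genes, 5 rose in WT cells (45.5%, against 13.8% of all tested genes). In KO cells 4 rose (36.4%, against 17.3%) and 1 fell (9.09%, against 16.1%). Rpn2, Stt3a and Ostc rose in both genotypes. Stt3a, the catalytic subunit, had 93.2, 68.5, 87.1 and 56.1 normalized counts in WT myoblasts and 184, 97.2, 140.3 and 142 in WT myotubes. KO cells had 86.6, 86.3, 121 and 89.3 in myoblasts and 222, 140.1, 124 and 132 in myotubes. Every myotube sample lay above every myoblast sample of its genotype, by 0.87 (SE 0.23, adjusted p = 0.00925) in WT and 0.66 (SE 0.23, adjusted p = 0.0308) in KO cells on the log2 scale. The KO call was lost in 5 of 26 alternatives, among them scaling to equal totals. Stt3b had 169, 199.6, 170.1 and 118, 209.8, 176, 227 and 248, 149.6, 129, 187 and 138 and 168, 175, 176 and 129.9 in WT myoblasts, WT myotubes, KO myoblasts and KO myotubes. Those groups overlapped at both steps, and changes of 0.40 and 0.11 did not pass.

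Ostc rose by 0.80 in WT (adjusted p = 0.00182) and 0.68 in KO cells (adjusted p = 0.00389), with no overlap in either genotype and under every alternative. Its partner Krtcap2 did not pass, at -0.15 and -0.05 on the log2 scale. Among the shared subunits, Rpn2 rose by 1.00 in WT (adjusted p = 0.00542) and 0.65 in KO cells (adjusted p = 0.0445), the latter call being lost in 14 of 26 alternatives. Ddost rose in WT cells by 0.81 (adjusted p = 0.0135), with WT myoblast replicate 1 (190.1) inside the myotube range of 175 to 276, and had 0.33 in KO cells. Its WT call was lost in 3 of 26 alternatives. Dad1, a small subunit named for its defence against cell death, had log2 values of 0.06 and -0.08 and did not pass.

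Rpn1 (ENSMUSG00000030062, chr6:88084482-88105304), the subunit that takes up certain membrane proteins for glycosylation, had 136, 79.1, 81.1 and 70.4 normalized counts in WT myoblasts and 136, 156, 119.9 and 98.1 in WT myotubes. Its KO values were 98.0, 88.0, 131 and 79.3 in myoblasts and 249.8, 247, 184 and 176 in myotubes. The KO groups were fully apart and the WT groups overlapped through replicate 1 of the myoblasts. The log2 fold change was 1.11 (SE 0.22, adjusted p = 0.000608) in KO cells, 2.16-fold and held under every alternative, and 0.50 (SE 0.22, adjusted p = 0.11) in WT cells.

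Tusc3 (ENSMUSG00000039530, chr8:39005845-39165114) had 46.1, 36.6, 39.0 and 28.5 normalized counts in WT myoblasts and 118, 50.4, 75.3 and 93.1 in WT myotubes, with no overlap. Its values in KO cells were 42.0, 25.7, 71.1 and 40.9 in myoblasts and 111, 81.7, 43.2 and 42.0 in myotubes, and here the groups overlapped. The WT log2 fold change of 1.098 (SE 0.34, adjusted p = 0.0227) was the highest of the members in that comparison, and it was lost without WT myoblast replicate 4, WT myotube replicate 1 or WT myotube replicate 4. In KO cells the value was 0.59 (SE 0.34, adjusted p = 0.187). Magt1, its alternative in the STT3B form, had 245, 278, 273 and 153 in WT myoblasts, 195, 195, 303 and 248 in WT myotubes, 185, 82.2, 226 and 148 in KO myoblasts and 140.4, 152, 123 and 242 in KO myotubes. Its log2 fold changes on differentiation were 0.00 (95% interval -0.57 to 0.57) in WT and 0.08 (-0.49 to 0.65) in KO cells.

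Ost4 (ENSMUSG00000038803, chr5:30905885-30907788), a very small subunit that stabilises OST, fell furthest. It had 74.7, 67.5, 64.0 and 76.6 normalized counts in WT myoblasts and 50.9, 35.1, 91.1 and 133 in WT myotubes. The KO samples had 140.0, 45.7, 78.9 and 122 in myoblasts and 17.4, 39.4, 27.0 and 9.99 in myotubes, on 5 to 30 reads per KO myotube sample. All 4 KO myotube samples lay below all KO myoblast samples, and the WT myotubes spread on both sides of the WT myoblasts. The log2 fold change was -2.03 (SE 0.41, adjusted p = 0.000605) in KO cells, to 0.244 of the myoblast level and under every alternative, and -0.05 (SE 0.41, adjusted p = 0.954) in WT cells. On the other strand Agbl5 overlaps 53.2% of the exonic bases of Ost4. Agbl5 had 4.34 to 13.1 in KO myoblasts and 7.2 to 13.99 in KO myotubes, and its own log2 change there was 0.28 (SE 0.37, adjusted p = 0.595).

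**Figure D4:**
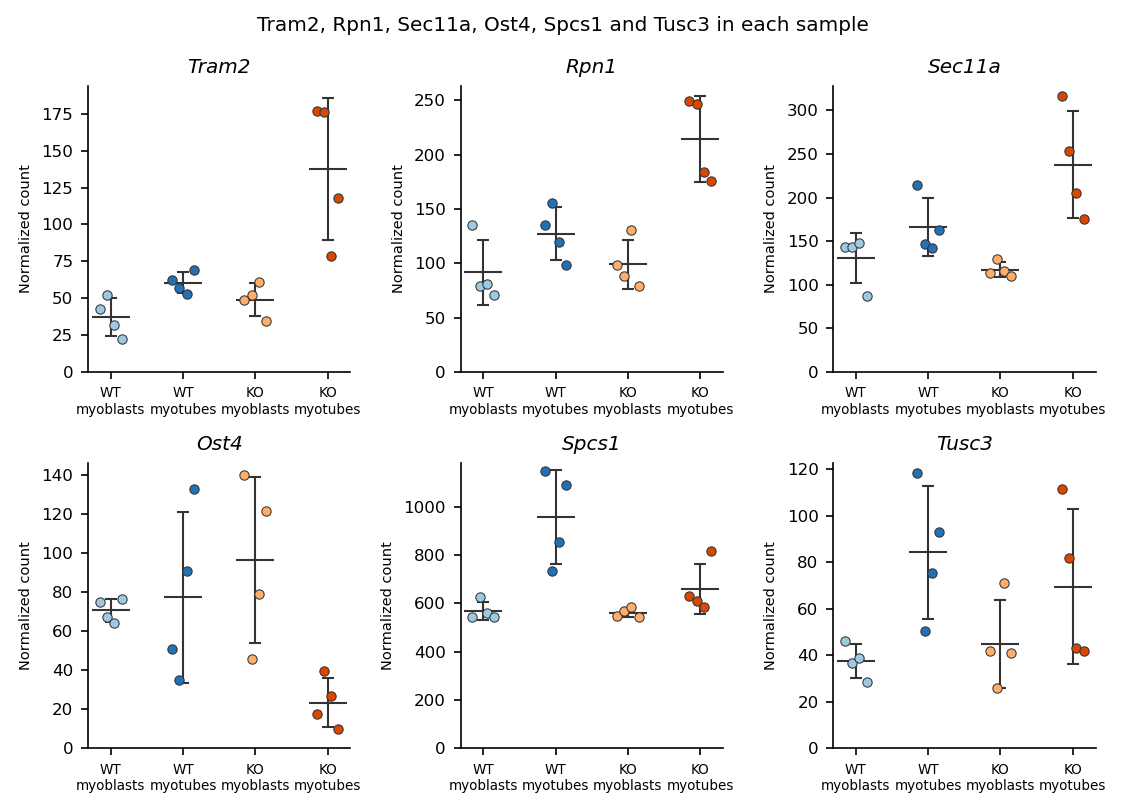
Normalized counts (y axis, linear, from 0) of 6 members in each of the 16 samples, with the group mean and SD. Tram2, Rpn1 and Sec11a are highest in KO myotubes (means of 137, 214 and 238), Ost4 is lowest there (23.5), and Spcs1 and Tusc3 have their highest means in WT myotubes (957 and 84.3).

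The next question was how KO cells differed from WT cells in this machinery at a given stage. Genotype goes together with cell line here, so loss of Fam134b cannot be told apart from other differences between the lines. In myoblasts, 1 of 34 members was higher in KO cells and 0 were lower, which is 2.94% and 0%, where 7.26% of all tested genes were higher and 8.50% lower. The median log2 difference of the members was 0.13, against -0.01 over all genes. The 1 member was Sec61a1, with the samples given above at 430.5 ± 78.4 (mean ± SD, n = 4) in WT and 653 ± 96.5 (n = 4) in KO myoblasts. All 4 KO samples were above all 4 WT samples, by 0.61 (SE 0.18, adjusted p = 0.0216) on the log2 scale, and the call was lost without WT myoblast replicate 4 or KO myoblast replicate 3. Magt1 (-0.62, adjusted p = 0.145) and Ssr1 (-0.47, adjusted p = 0.129) had the next smallest adjusted p and did not pass. The muscle markers summed to 1073 to 1634 in WT and 108 to 189 in KO myoblasts, and the part of this difference in the values above was not tested.

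In myotubes, 4 members were higher in KO cells and 3 lower, which is 11.8% and 8.82%, where 9.74% of all tested genes were higher and 13.7% lower. These shares are near those of all genes. The median log2 difference of the members was -0.04, against -0.07 over all genes. Sec61a1, Sec61g, Tram2 and Rpn1 were higher and Spcs1, Dad1 and Ost4 lower in KO myotubes. Muscle markers summed to 11325 to 15034 in WT and 5454 to 7006 in KO myotubes, and their part in these differences was not tested. With the shallow KO myotube replicates 2 and 4 left out, 6 members were called: Dad1 and Sec61g were lost and Sec61b was gained. Without WT myotube replicate 4, the calls of Dad1, Rpn1 and Spcs1 were lost and 4 remained. Over all tested genes, 1049 were higher and 1472 lower with every sample kept. These were 901 and 1306 without the shallow libraries, and 786 and 1120 without WT myotube replicate 4.

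Sec61a1 differed most reliably, with 617 ± 66.1 normalized counts (mean ± SD, n = 4) in WT and 1276 ± 287 (n = 4) in KO myotubes. This was 2.04-fold, a log2 difference of 1.03 (SE 0.18, adjusted p = 0.000278), without overlap and under every alternative. Of the 34 members it was the one that differed between genotypes at both stages. Tram2 was 2.15-fold higher in KO myotubes, also without overlap and under every alternative, with a log2 difference of 1.11 (SE 0.28, adjusted p = 0.00695). For Rpn1 the log2 difference was 0.75 (SE 0.22, adjusted p = 0.0184), with every KO sample above every WT sample, and the call was lost without WT myotube replicate 4 or KO myotube replicate 1.

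Sec61g was higher by 1.09 (SE 0.31, adjusted p = 0.0128) on the log2 scale, with 35.4, 58.5, 35.3 and 50.5 in WT and 74.5, 75.9, 92.7 and 154 in KO myotubes and no overlap, its highest KO value coming from the shallowest library. Ost4 was lower, by a log2 difference of -1.66 (SE 0.41, adjusted p = 0.0051), under every alternative, although KO replicate 2 (39.4) lay above WT replicate 2 (35.1). Agbl5, its overlapping neighbour, had 7.2 to 14.9 in WT and 7.2 to 13.99 in KO myotubes. In myoblasts it was lower in KO cells, with a log2 difference of -1.44 (SE 0.37, adjusted p = 0.00957). On differentiation in WT cells it had -0.99 (adjusted p = 0.0618), without overlap, and its interaction was 1.27 (adjusted p = 0.211). The part of Agbl5 in the Ost4 values was not tested. Spcs1 and Dad1 were lower too, with log2 differences of -0.52 (SE 0.16, adjusted p = 0.0192) and -0.45 (SE 0.16, adjusted p = 0.0488). Both overlapped between the genotypes, and their calls were lost in 4 and 17 of 26 alternatives. Dad1 had 1158, 934, 1141 and 981 in WT myoblasts, 887, 1272, 1138 and 1105 in WT myotubes, 871, 722, 899 and 907 in KO myoblasts and 805, 689, 723 and 1027 in KO myotubes. In myoblasts all 4 KO samples of Dad1 were below all WT samples, but the difference of -0.31 did not pass (adjusted p = 0.223).

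**Figure D5:**
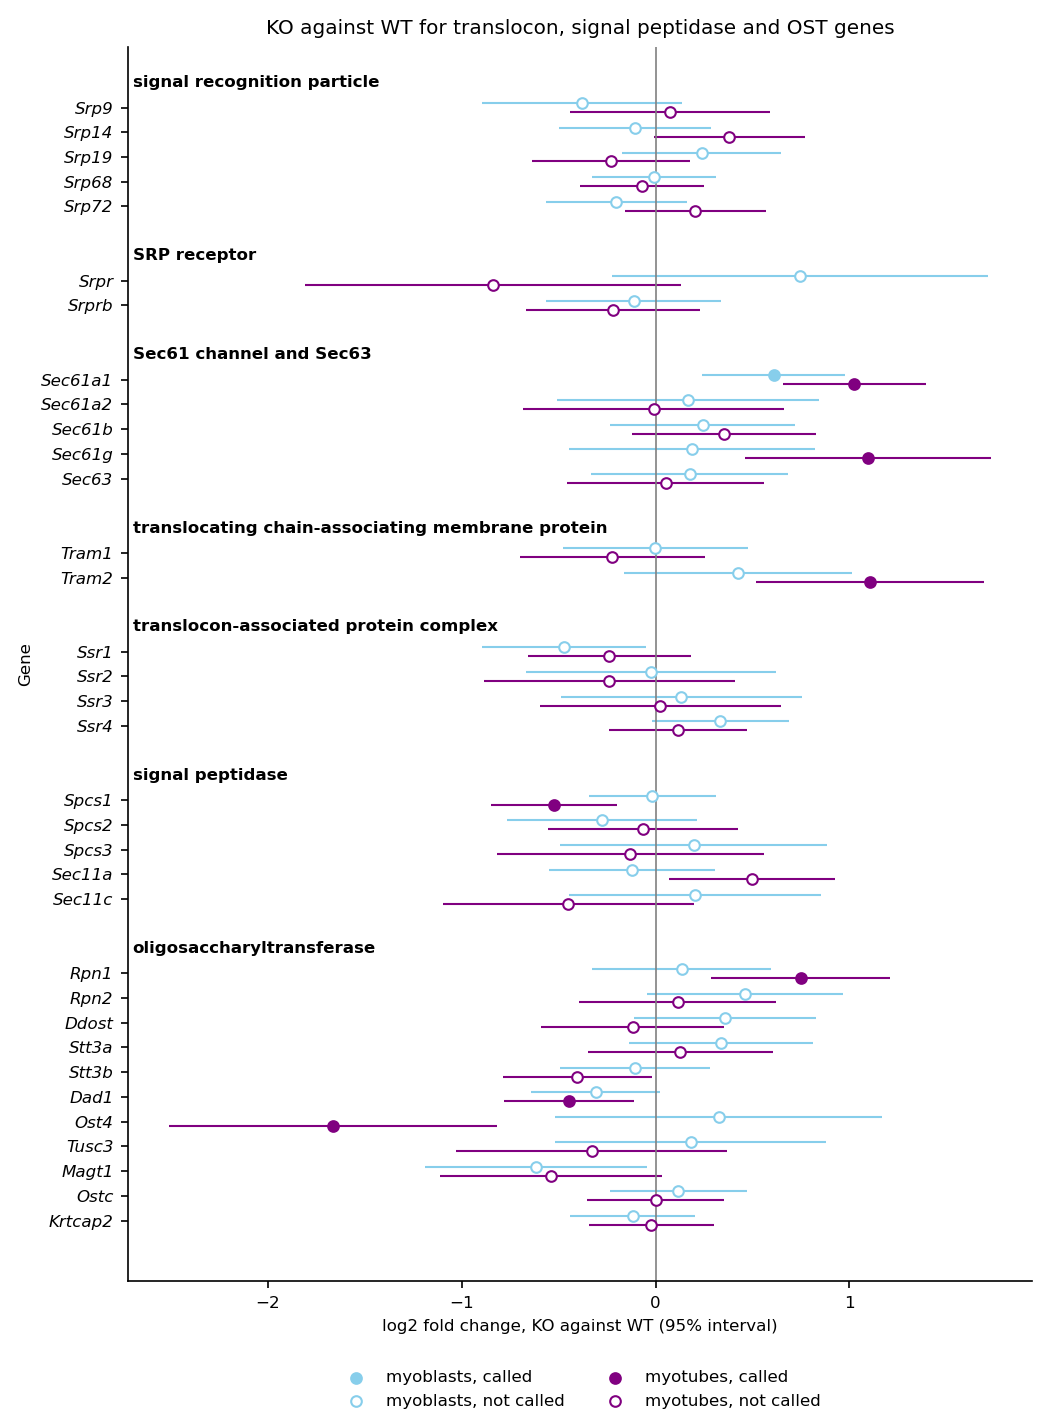
Log2 difference of Fam134b KO against WT (x axis) for the 34 tested members grouped by complex, in myoblasts (light blue) and myotubes (purple), with 95% intervals from the limma fit; filled points passed an adjusted p of 0.05. Sec61a1 is filled at both stages (0.61 and 1.03), and Ost4 stands at 0.33 in myoblasts and -1.66 in myotubes.

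Whether differentiation changed a member differently in KO and WT cells was tested as an interaction, the KO change minus the WT change. Of the 34 members, 0 were called in either direction by limma, where 1.97% of all tested genes were called higher and 1.48% lower. The limma voom fit on the recovered reads called 0 members too, and the fit with sample weights called 2, Ost4 and Spcs1. With sample weights, 618 of all tested genes were called higher and 603 lower, against 212 and 159 in the main fit. With no adjustment, at a p under 0.05, 1876 of the 10767 genes and 5 of the members passed. Ost4 came closest, with an interaction of -1.99 (SE 0.57, adjusted p = 0.0588) on the log2 scale. Srpr had -1.58 (SE 0.66, adjusted p = 0.21), on few reads. The intervals were wide for most members, as for Tram2 (0.68, 95% interval -0.15 to 1.51) and Rpn1 (0.61, -0.04 to 1.27), so a difference of about this size could be neither shown nor set aside.

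As a description, the log2 changes on differentiation in WT and in KO cells, which rest on separate samples, had a Pearson r of 0.48 and a Spearman rho of 0.54 over the 34 members, against r = 0.74 over all 10767 genes. They had the same sign in 25 of 34 members (73.5%), close to the 72.5% of all genes. The genotype differences in myoblasts and in myotubes had an r of 0.15 over the members and 0.62 over all genes. Genes are not independent replicates, and no test was made of these values.

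For the gene pairs that can stand in for each other, the log2 ratio of counts within each sample shows how their balance moved. The counts are not corrected for length, so these ratios were compared between groups and say nothing of which gene is the more abundant. Tusc3 against Magt1 went from -2.92 to -2.41 in WT myoblasts to -2.01 to -0.72 in WT myotubes, without overlap, towards Tusc3. In KO cells the ranges were -2.14 to -1.67 and -2.53 to -0.33, which overlapped. Tram2 against Tram1 moved from -3.33 to -2.56 in KO myoblasts to -2.53 to -0.66 in KO myotubes, without overlap, and from -4.01 to -2.79 to -3.06 to -2.55 in WT cells, with overlap. Sec11c against Sec11a moved from -2.93 to -2.29 in KO myoblasts to -4.03 to -3.05 in KO myotubes, without overlap, towards Sec11a, where WT cells had -3.40 to -2.53 and -3.10 to -1.97. Stt3b against Stt3a fell from 0.58 to 0.79 in KO myoblasts to -0.40 to 0.51 in KO myotubes, and had 0.86 to 1.54 in WT myoblasts and 0.19 to 0.86 in WT myotubes, which overlapped slightly at 0.86. Sec61a2 against Sec61a1 had means of -3.74 and -3.24 in WT and -4.17 and -4.28 in KO myoblasts and myotubes, with overlap at both steps. These ranges were not tested.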

How the data were processed

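RNA from 4 samples of each of the 4 groups was sequenced as single-end digital mRNA libraries. Per the labels and the study's methods, the authors converted base calls with bcl2fastq, trimmed reads with bbduk, removed ribosomal and phiX reads, aligned with STAR 2.6.0a and counted on genes with HTSeq, and the submitters' processing notes name the build mm10. The deposited table is on a log2 scale. Before the log2 step, the authors scaled each count by a factor of its sample and added a pseudocount of 1. The tool behind that factor and the strand setting of counting are not given in the sources used here. In normalized counts, every value above 0 was a whole multiple of 1 step per sample (100% within the tolerance of 0.01 reads), which gave the reads behind each value. The table holds 0 columns of other samples.

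The log2 values of the 10767 genes that passed the filter were fitted with limma 3.58.1 in R 4.3.3 (4 group means, all 16 samples, trend, no covariates), and an adjusted p (Benjamini-Hochberg over all tested genes) under 0.05 was a call. All adjusted p-values in the text come from this limma fit, and folds are on the log2(normalized count + 1) scale, which understates changes of low genes. The procedure was run on simulated counts with the same spread in every group. In the data the KO myotube samples were spread more widely than the others, so that run does not cover them. Annotation came from GENCODE M21 (GRCm38), of which mm10 is another name, and promoters from RefSeq (GRCm38.p6). A comparison of proteins between paralogs was planned and not run, since protein sequences were not used here. The labels call the samples biological replicates, and the study's methods describe the replicates of its experiments as independent without saying how the RNA samples were kept apart. P-values and the limma intervals measure the spread between these samples, and floors of 3 reads cover counting error only.

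Members, gene lists, tests and alternatives were chosen with earlier results of these data known. Values in every sample were given for the 3 called members with the largest positive and the 3 with the most negative log2 fold change in each comparison and for 5 paralog pairs, and of related genes the 2 most raised and the 2 most lowered calls were named, with Fam134b once. A related gene that this rule names is not reported here by name, though the counts of its list include it. Alternatives were a pseudocount of 5, no filter, a minimum of 50, total scaling, quantile normalization, a replicate block, only the 8 samples compared, sample weights, voom on recovered reads and each sample left out, and, added later, the shallow KO myotube samples left out.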

Additional observations from a re-analysis of the deposited data

Results flagged for a closer look

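In 11 of 136 groups of 4 samples (34 members in 4 groups each), the sample at 1 end lay so far from the rest that its gap over the range of the group passed Dixon's 95% critical value. Chance alone gives about 1 group in 20. The values are normalized counts, and no cause was tested.

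Samples of the WT gave 4 of them. Sec61a2 stood at 16.04 in WT myoblast replicate 4, against 39.7 to 40.5 in the others, and at 108.8 in WT myotube replicate 1, against 52.0 to 58.5, the pair of samples on which its WT call rests. Sec11a had 87.3 in WT myoblast replicate 4, against 143 to 148. Ssr4 had 793 in WT myotube replicate 1, against 1013 to 1030.0, whereas most members were highest in that sample.

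KO samples gave the other 7. KO myoblast replicate 2 stood high for Srp14 (703, against 463 to 489), Srp72 (541, against 397 to 417) and Sec61g (139.5, against 51.2 to 59.5). KO myoblast replicate 1 had 47.3 for Srp9, against 44.8 to 45.1, and 14.87 for Sec11c, against 21.6 to 22.5. Stt3a had 121 in KO myoblast replicate 3, against 86.3 to 89.3. Stt3b had 129.9 in KO myotube replicate 4, the shallowest library, against 169 to 176. The spread of Srp9 was small in absolute terms, so its gap is about 2 normalized counts.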

How the results depend on the processing

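Of the 34 calls of a member in a comparison, 0 reversed, 14 held under every alternative and 24 held under all that left out no sample. Sample weights gave 20 calls in WT differentiation, 4 in KO against WT myoblasts and 2 (Ost4 and Spcs1) in the interaction, and the cause was not tested. Calls over all tested genes rose with sample weights too. They were 2463 higher and 2220 lower in WT differentiation, against 1488 and 986 in the main fit. In KO against WT myoblasts they were 1764 and 2009, against 782 and 915, and in the interaction 618 and 603, against 212 and 159. Leaving out each sample in turn gave 4 to 16 calls in WT differentiation, 8 to 16 in KO differentiation, 0 to 1 in KO against WT myoblasts, 4 to 8 in KO against WT myotubes and 0 to 2 in the interaction. The low ends came from WT myoblast replicate 4 (4 calls) and WT myotube replicate 1 (5) in WT differentiation, KO myoblast replicate 4 (8) in KO differentiation, WT myoblast replicate 4 or KO myoblast replicate 3 (0) in myoblasts, and WT myotube replicate 4 (4) in myotubes. Calls over all tested genes also changed with the sample left out. The 2 calls of the interaction came without WT myotube replicate 2 (Ost4 and Srpr), where 251 of all tested genes were called higher and 166 lower. With the shallow KO myotube samples left out, there were 14 calls in WT differentiation, 12 in KO differentiation and 6 in KO against WT myotubes. Deviations of same-numbered samples had a mean r of 0.03 (24 pairs, 10 over 0.1), against -0.01 for different numbers (72 pairs, 17 over 0.1). Of the 16 samples, 7 correlated best with their own number. Whether the numbers pair samples could not be settled from these weak correlations. With the replicate block the counts were 13, 15, 1, 6 and 0 in the order above. Depth limits the members of few reads, Srpr (4 to 55 reads per sample), Sec11c (7 to 39) and Ost4 in KO myotubes (5 to 30), where 3 reads are 2.49 to 5.99 normalized counts.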

Other observations

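A set of 5 lists of neighbouring genes, 56 in the table and 55 tested, were looked at beside the members: the assembly of the lipid-linked glycan, the glucosidases and mannosidases that trim it, the ER membrane protein complex (EMC), the multipass translocon with Sec62, and the insertion of tail-anchored proteins. In WT differentiation 16 rose and 0 fell (29.1% and 0%, where 13.8% and 9.16% of all tested genes did). In KO differentiation 12 rose and 5 fell (21.8% and 9.09%, against 17.3% and 16.1% of all genes), so that the share that rose was near that of all genes. Trimming enzymes and the multipass translocon had the largest shares in WT cells, 5 of 8 and 4 of 7. For glycan assembly it was 4 of 23 and for EMC 3 of 10, and 0 of 7 genes of tail-anchored insertion rose. Mogs, the glucosidase that removes the outermost glucose, had 63.7, 63.7, 64.0 and 39.2 normalized counts in WT myoblasts and 234, 124, 138 and 121 in WT myotubes. Its log2 fold change was 1.38 in WT (adjusted p = 0.00022) and 1.53 in KO cells (adjusted p = 3.39e-05), with no overlap in either. Ganab, the catalytic subunit of the next glucosidase, rose by 1.30 in WT (adjusted p = 0.00851) and 1.31 in KO cells (adjusted p = 0.00523), the KO groups overlapping. Alg2, a mannosyltransferase of glycan assembly, rose by 1.20 in WT (adjusted p = 0.00288) and 1.45 in KO cells (adjusted p = 0.000296), with no overlap in either.

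Between genotypes, 2 of the 55 genes were higher and 3 lower in KO myoblasts, and 3 were higher and 4 lower in KO myotubes. These shares, 3.64% and 5.45% in myoblasts and 5.45% and 7.27% in myotubes, lay below the 7.26%, 8.50%, 9.74% and 13.7% of all tested genes. Emc2, a cytosolic subunit of EMC, which inserts membrane proteins, stood out. It had 707, 782, 787 and 872 normalized counts in WT myoblasts and 2714, 2246, 2443 and 2539 in KO myoblasts, and then 985, 802, 1131 and 1036 in WT and 1203, 1005, 1223 and 1335 in KO myotubes. The KO myoblasts lay above all other samples. The log2 difference in myoblasts was 1.66 (SE 0.15, adjusted p = 3.07e-08), the change on differentiation in KO cells -1.06 (SE 0.15, adjusted p = 1.18e-05), and the interaction -1.39 (SE 0.21, adjusted p = 0.000334), the 1 interaction called among the 55. Emc9, a cytosolic EMC subunit, was lower in KO cells at both stages. It had 7.93 to 10.4 in WT and 0 to 0.9 in KO myotubes, the latter on at most 1 read. The myoblast groups overlapped, with KO replicate 4 (5.01) above WT replicate 2 (4.82). Only WT samples of Emc9 reached the filter value of 10. Emc9 thus entered the test through the genotype in which it was higher. Its log2 differences were -2.10 (SE 0.58, adjusted p = 0.0143) in myoblasts and -3.10 (SE 0.58, adjusted p = 0.000532) in myotubes. Dpm1, a subunit of the enzyme that makes dolichol-phosphate mannose, was higher by 0.77 (adjusted p = 0.0274) and Nomo1, of the multipass translocon, lower by 0.89 on the log2 scale (adjusted p = 0.00784) in KO myoblasts. Alg2 (0.90, adjusted p = 0.0186) and Wdr83os, of the multipass translocon (0.82, adjusted p = 0.0116), were among those higher in KO myotubes.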
